A study of Rattus norvegicus with 6 samples.

Results

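The interleukin-1 (IL-1) family comprises secreted cytokines, the receptors that bind them and the proteins that hold both in check. The 10 genes described here are the cytokine genes *Il1a*, *Il1b*, *Il18* and *Il33*, the antagonist gene *Il1rn*, the binding protein gene *Il18bp*, and the receptor genes *Il1r1*, *Il1r2*, *Il1rap* and *Sigirr*. They were taken by name from tables of 61453 loci, of which 20864 are annotated as protein coding. All 10 were found, on 14 rows, and where several rows carried a name the protein-coding row of highest mean FPKM (a fragment count scaled to locus length and library size) was used. The study sequenced RNA of scraped corneal epithelium from male Brown Norway rats, in 3 libraries of the diabetic group and 3 of the normal group. Diabetic rats had received streptozotocin (STZ, 50 mg/kg), a toxin of insulin-producing cells, and counted as diabetic above a blood glucose of 16.67 mmol/l. Normal rats had received the citrate buffer alone, and tissue was taken 16 weeks later. The methods name 6 rats in all and 6 corneas a group, but do not state which rat or corneas make up each library, so p-values measure the spread between libraries, which may be partly technical.

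IL-1α, encoded by *Il1a*, is stored in epithelial cells and released when they are damaged, and IL-1β and IL-18 are made as precursors that caspase-1 cleaves. IL-1α and IL-1β bind IL-1R1, which signals together with the accessory protein IL-1RAP through MyD88, IRAK kinases and TRAF6 to NF-kappa B. IL-1RN occupies the same receptor without signaling, IL-1R2 is a decoy that binds IL-1 without a signaling domain, SIGIRR dampens the receptors, and IL-18BP captures IL-18. IL-33 is a nuclear alarmin of barrier epithelia, whose receptor also uses IL-1RAP.

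Libraries held 62288901 to 87040253 counts, and a count of 0 allows a share of up to 0.0345 to 0.0482 CPM (counts scaled to the library total; 3 counts, counting error alone). The corneal keratin gene *Krt12* stood at 3660 to 4455 FPKM in all 6 libraries, and *Aldh3a1*, a corneal crystallin, at 9143 to 10326 FPKM. On the second principal component normal replicate 3 (−49.1) and diabetic replicate 3 (−40.6) stood apart from the other 4 libraries (10.9 to 29.3), and the sum of 6 lens markers ran from 3.16 FPKM in diabetic replicate 3 to 1202 FPKM in diabetic replicate 2. Since the tissue is a mixture of cells, fewer cells of a type and less RNA per cell cannot be told apart in any value below.

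*Il1rn* was the most abundant member per length in both groups, with a mean of 21.96 FPKM (SD 4.53, n = 3) in the normal group and 19.1 FPKM (SD 4.23, n = 3) in the diabetic group. Every library of either group had a higher FPKM of *Il1rn* than of any other member, and its normal mean exceeded that of 95.3% of protein-coding loci. By counts not divided by length, *Il18* lay above *Il1rn* in every library (75.5 to 244.6 CPM against 35.15 to 63.06 CPM). The top place of *Il1rn* thus depends on the length used for *Il18* (below). *Il1a* (6.75 ± 2.23 and 6.98 ± 2.85 FPKM) and *Il18* (7.13 ± 1.67 and 5.12 ± 2.97 FPKM) followed (here and below mean ± SD of 3 normal and then of 3 diabetic libraries), and their values overlapped. *Il33*, *Il1r1*, *Il1rap*, *Il18bp* and *Sigirr* lay between 2.07 and 3.70 FPKM on average in normal libraries, and each neighbour in that order overlapped with the next. *Il1b* and *Il1r2* lay apart below these 8, with no library above 0.270 FPKM. The places of *Il18* and *Il18bp* in this order are uncertain, because the length behind the FPKM of *Il18* covers 68.8% of its span and the locus of *Il18bp* is joined with another gene (both below). In diabetic libraries the order was the same but for 3 swaps between neighbours (*Il1a* over *Il18*, *Il1r1* over *Il33*, *Il1r2* over *Il1b*) and *Sigirr* ahead of *Il18bp*. The last pair alone did not overlap in diabetic libraries, by a margin of 2.145 against 2.144 FPKM.

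**Figure D1:**
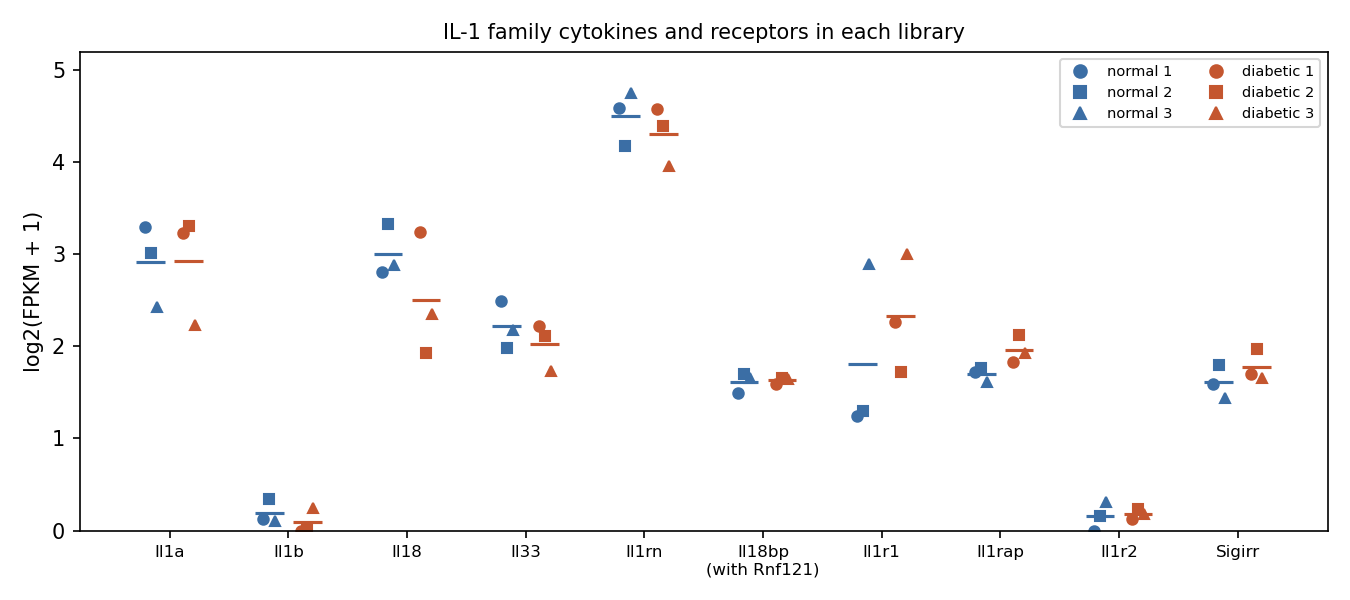
Level of the 10 members as log2(FPKM + 1), with 1 point per library and a bar at the group mean. *Il1rn* is highest in both groups, *Il1b* and *Il1r2* lie near 0, and *Il1r1* is spread most widely over the 6 libraries.

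*Il1a* and *Il1b* lie beside each other on the minus strand of chromosome 3 in the rat build rn6, at 121825412 to 121836086 and 121876263 to 121882726. *Il1rn* lies on the plus strand of the same chromosome at 1452644 to 1468614, next to the genes of the IL-36 cytokines. The 250 bases before the RefSeq start sites of *Il1a*, *Il1b* and *Il1rn* are printed because these neighbouring or related ligand genes stood at such unequal levels, and that of *Il1rap* because it is the member whose groups did not overlap (below). The sequences are from RefSeq on the build GRCr8, read in the direction of transcription, and 9 of the 10 members had such a window (*Il1r2* did not). Capitals mark matches to TATAAA, to TGANTCA (the letters AP-1 factors bind) and to the NF-kappa B consensus, searched on both strands.
*Il1a* (chr3:136990018-136990267, minus strand): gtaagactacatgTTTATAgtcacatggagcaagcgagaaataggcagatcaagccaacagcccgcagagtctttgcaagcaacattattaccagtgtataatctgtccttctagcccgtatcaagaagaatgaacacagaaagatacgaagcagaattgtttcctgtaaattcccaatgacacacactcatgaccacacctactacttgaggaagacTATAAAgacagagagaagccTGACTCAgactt
*Il1b* (chr3:137036582-137036831, minus strand): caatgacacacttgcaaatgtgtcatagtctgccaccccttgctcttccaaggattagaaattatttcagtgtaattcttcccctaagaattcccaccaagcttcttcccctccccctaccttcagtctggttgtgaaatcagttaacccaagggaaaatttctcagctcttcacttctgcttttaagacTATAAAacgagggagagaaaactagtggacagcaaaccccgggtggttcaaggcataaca
*Il1rn* (chr3:27520072-27520321, plus strand): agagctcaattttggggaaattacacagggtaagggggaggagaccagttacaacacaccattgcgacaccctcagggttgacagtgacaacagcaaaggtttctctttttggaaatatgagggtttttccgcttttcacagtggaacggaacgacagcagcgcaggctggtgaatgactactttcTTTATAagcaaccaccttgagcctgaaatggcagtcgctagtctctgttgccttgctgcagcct
*Il1rap* (chr11:87704343-87704592, minus strand): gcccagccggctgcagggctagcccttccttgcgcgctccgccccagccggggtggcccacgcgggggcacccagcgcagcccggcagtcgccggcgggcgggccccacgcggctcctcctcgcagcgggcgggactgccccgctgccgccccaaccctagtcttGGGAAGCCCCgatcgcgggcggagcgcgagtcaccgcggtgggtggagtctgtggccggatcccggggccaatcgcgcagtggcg
*Il1a* carried TATAAA 32 to 27 bases and TGACTCA 12 to 6 bases before the start site, and again TATAAA on the other strand 237 to 232 bases before it. *Il1b* carried TATAAA 60 to 55 bases before the start and *Il1rn* the same letters on the other strand, 64 to 59 bases before it. *Il1rap* carried the NF-kappa B consensus 85 to 76 bases before the start, in letters that match on both strands, and no TATAAA. RefSeq gives a further start site of *Il1rap*, from which the same match lies 166 to 157 bases away. Among the windows not printed, 1 of *Il33* held TATAAA (29 to 24 bases before the start) and that of *Il1r1* the NF-kappa B consensus on the other strand (135 to 126 bases before it). Of 33469 windows of this length, 12.9% held TATAAA, 6.34% TGANTCA and 6.33% the NF-kappa B consensus. The window of *Il1rap* had a GC content of 78.4%, against a median of 51.2% over all windows. Such a match describes the letters, and no binding was measured.

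To ask which members differed between diabetic and normal corneal epithelium, the 42551 loci averaging 0.5 FPKM or more were quantile-normalized as log2(FPKM + 1) and compared by limma. To be called, a locus needed a fold change over 1.2 and a p under 0.05 after Benjamini-Hochberg adjustment. The raw counts of the same loci were tested by edgeR (quasi-likelihood) and DESeq2. These loci include many not annotated as protein coding, and the shares below were not computed for protein-coding loci alone. *Il1b* and *Il1r2* lay under the filter, so 8 members were tested. None was called by limma, edgeR or DESeq2, which called 0.0259%, 0.0141% and 0.234% of all loci, and none had an unadjusted p under 0.05 with any of the 3 (4.8%, 4.14% and 5.02% of all loci). Adjusted p values were 0.953 to 0.998 with limma, 0.991 to 0.999 with edgeR and 0.998 to 1.000 with DESeq2. The limma log2 fold change was positive for 5 members and negative for 3, with a median of 0.022, beside −0.0049 over all loci tested. The 95% intervals below show which changes on the log2(FPKM + 1) scale these libraries leave possible. The added 1 understates changes at low FPKM, so the intervals are no limits on the fold change of FPKM or counts.

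**Figure D2:**
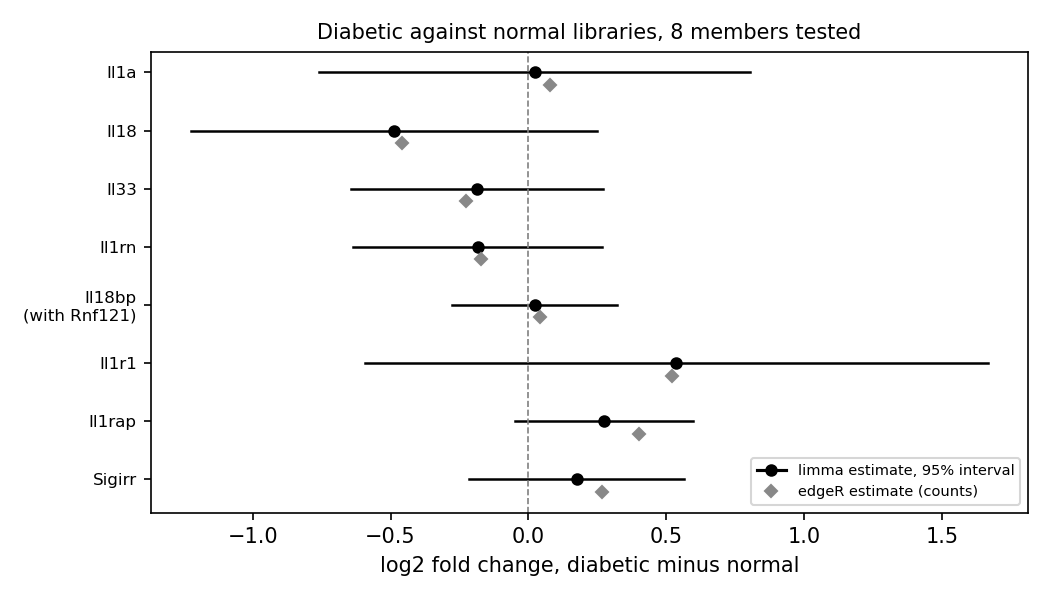
Log2 fold change (diabetic minus normal) of the 8 members tested: black points and lines are limma estimates with 95% intervals on the log2(FPKM + 1) scale, grey diamonds edgeR estimates from counts. All 8 intervals include 0, and the interval of *Il1r1* is the widest.

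Among the ligand genes, *Il1a* stood at 8.81, 7.05 and 4.38 FPKM in normal replicates 1, 2 and 3 and at 8.36, 8.87 and 3.70 FPKM in diabetic replicates 1, 2 and 3. The lowest values in each group were those of replicate 3, and the groups overlapped fully. The log2 fold change was 0.022 (SE 0.34, 95% interval −0.76 to 0.80, limma unadjusted p 0.948). Its sign turned when any of 3 libraries was left out, with values from −0.23 without normal replicate 3 to 0.38 without diabetic replicate 3. *Il33* stood at 4.62, 2.96 and 3.52 FPKM against 3.67, 3.31 and 2.31 FPKM, with the lowest value in diabetic replicate 3 and the highest in normal replicate 1. Its log2 fold change was −0.19 (SE 0.20, interval −0.64 to 0.27, limma unadjusted p 0.369), and with a library left out it ran from −0.30 (without normal replicate 2) to −0.022 (without diabetic replicate 3).

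*Il1b*, the classical product of the inflammasome, was almost absent. It had 12, 33 and 11 counts in normal and 0, 2 and 20 counts in diabetic libraries, or 0.147 ± 0.107 and 0.0680 ± 0.104 FPKM. In diabetic replicate 1 the count of 0 allows a share of up to 0.0345 CPM. In an edgeR fit without the filter its log2 fold change was −1.06 (unadjusted p 0.490, adjusted p 0.976), so these counts could not separate the groups. In the same tissue *Il1a* had 349 to 1060 counts per library.

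*Il18* showed the lowest log2 fold change of the members, −0.49 (SE 0.32, 95% interval −1.22 to 0.25, limma unadjusted p 0.164). Normal libraries held 12758, 18709 and 14102 of its counts and diabetic libraries 19824, 4703 and 7166, or 162, 245 and 174 CPM against 228, 75.5 and 112 CPM. Diabetic replicates 2 and 3 lay below all normal libraries, whereas diabetic replicate 1 lay above normal replicates 1 and 3, so the groups overlapped. Without diabetic replicate 1 the log2 fold change was −0.84 (limma unadjusted p 0.00639), without diabetic replicate 2 it was −0.21 and without normal replicate 2 it was −0.32. The study selected *Il18* for follow-up on these same samples, so its values here are not independent evidence in either direction. The pair of libraries with little *Il18* also scored 43.8 and 53.1 on the first principal component, against −38.9 to −11.2 in the other 4 libraries, and the part of this difference in the value of *Il18* was not tested.

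The *Il18* locus (chromosome 8, 54987728 to 55021871, plus strand, rn6) differs from the other members in how it was assembled. It holds 16 transcripts, of which 1 is an Ensembl transcript, and its FPKM was scaled over a length of 23487 bp, or 68.8% of its span. For the other 9 members that share was 2.61% to 22.1%, and 93.5% of 8147 protein-coding loci of several transcripts lay below *Il18*. Its FPKM therefore does not give the level of a mature mRNA and should not be set against that of *Il1rn*, *Il1a* or *Il33*. The first 12698 bp, or 37.2% of the span, also lie inside the locus of *Bco2* and *Tex12* on the minus strand, and no source used here says whether counting respected the strand.

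*Bco2* encodes a carotenoid-cleaving oxygenase of mitochondria and *Tex12* a protein of meiosis, and their joined locus had 5727, 7680 and 8981 counts in normal and 5488, 2402 and 3959 counts in diabetic libraries. All diabetic CPM (38.6 to 63.1) lay below all normal CPM (72.5 to 110.7), and the log2 fold change was −0.63 (SE 0.19, limma unadjusted p 0.0115, adjusted p 0.953). Like *Il18*, it was lowest in diabetic replicate 2. Among the 10 protein-coding loci within 100 kb of *Il18*, itself included, the other 8 had log2 fold changes of −0.18 to 0.24. Of these 8 only *Pts*, an enzyme gene of tetrahydrobiopterin synthesis, had groups that did not overlap (−0.18). Diabetic values lay entirely below normal ones for 5.72% of all loci tested and entirely above them for 3.94%. The share of reads that the overlapping loci exchange was not tested.

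**Figure D3:**
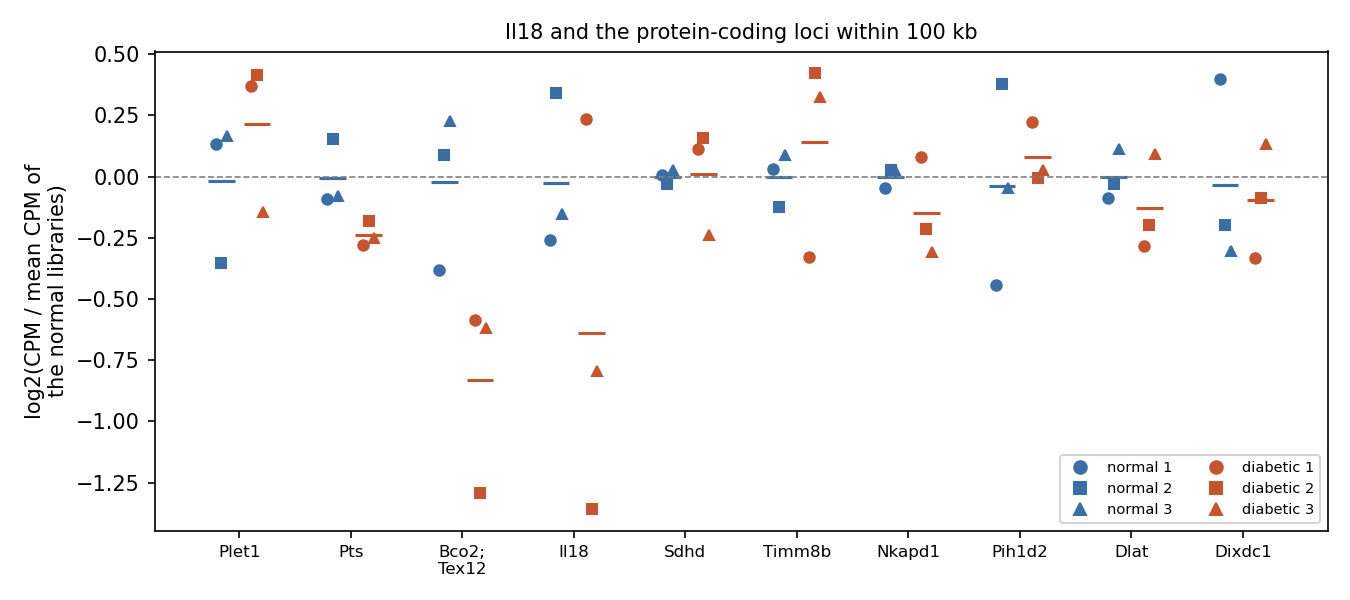
CPM of *Il18* and the 9 other protein-coding loci within 100 kb, as log2 of the ratio to the mean of the normal libraries, in genome order, with 1 point per library and a bar at the group mean. The locus of *Bco2* and *Tex12* and *Il18* are lowest in diabetic replicate 2, and no other locus shown lies as low in any library.

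Among the natural inhibitors, *Il1rn* stood at 23.0, 17.0 and 25.9 FPKM in normal and at 22.9, 19.9 and 14.5 FPKM in diabetic libraries. Diabetic replicate 3 was the lowest of all, and the other 5 libraries were mixed. The log2 fold change was −0.18 (SE 0.19, interval −0.64 to 0.27, limma unadjusted p 0.371), and with a library left out it ran from −0.35 (without normal replicate 2) to −0.024 (without diabetic replicate 3). Within a library the ratio of *Il1rn* to *Il1a*, which does not depend on the scaling between libraries, was 2.41 to 5.91 in normal and 2.25 to 3.92 in diabetic libraries. It was highest in replicate 3 of each group, where *Il1a* was lowest. *Il18bp* could not be measured by itself, as its locus also bears the name of *Rnf121*, a ubiquitin ligase gene. That joined locus was the steadiest of the members, at 2.07 ± 0.233 and 2.10 ± 0.0695 FPKM, with a log2 fold change of 0.022 (SE 0.13, interval −0.28 to 0.32).

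*Il1rap*, the accessory chain that IL-1R1 and the IL-33 and IL-36 receptors share, was the only member whose groups did not overlap. It stood at 2.29, 2.39 and 2.06 FPKM in normal and at 2.57, 3.35 and 2.82 FPKM in diabetic libraries, or 702, 710 and 653 counts against 863, 809 and 703 counts. The gap between groups was small, from 2.39 FPKM in normal replicate 2 to 2.57 FPKM in diabetic replicate 1. Diabetic values lay above all normal ones for 3.94% of all loci tested and below them for 5.72%, beside 1 and 0 of the 8 members. The log2 fold change was 0.28 with limma (SE 0.14, 95% interval −0.048 to 0.60, unadjusted p 0.0845) and 0.40 with edgeR (unadjusted p 0.0556, adjusted p 0.991). It stayed positive with each library left out (0.18 to 0.33 with limma), and was lowest without diabetic replicate 2. A fragment of higher FPKM on the opposite strand, which bears the same name, had a log2 fold change of 0.14.

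*Il1r1*, the signaling receptor of IL-1α and IL-1β, varied more between libraries than any other tested member. Normal replicates 1 and 2 had 1.37 and 1.45 FPKM, whereas normal replicate 3 had 6.44 FPKM. Diabetic replicates 1, 2 and 3 had 3.82, 2.30 and 7.01 FPKM. The highest library had 5.13 times the FPKM of the lowest, and the highest of each group was its replicate 3, so the spread within a group exceeded the difference between groups. The log2 fold change was 0.54 (SE 0.48, interval −0.59 to 1.67, limma unadjusted p 0.301). Without normal replicate 3 it was 1.07 (unadjusted p 0.0213, limma) and 1.64 with edgeR (unadjusted p 0.0102). Without diabetic replicate 3 it was 0.21 with limma and 0.031 with edgeR. The limma value was 0.26 without normal replicate 1, 0.28 without normal replicate 2 and 0.83 without diabetic replicate 2.

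Normal replicate 3 and diabetic replicate 3, the libraries with most *Il1r1*, were also those with least *Il1a* and those that stood apart on the second principal component. Of 5 conjunctival markers 4 were found, and their summed level was 890 to 1460 FPKM in normal and 574 to 1241 FPKM in diabetic libraries, with the lowest value of each group in replicate 3. *Krt13*, the leading one of these, stood at 382 and 310 FPKM there against 652 to 802 FPKM in the other 4 libraries. *Krt4* was also lowest there in each group (406 and 187 FPKM). *Krt7* was lowest there in neither group (20.9 and 24.1 FPKM, against 16.3 to 26.5 FPKM in the others). *Krt19* was read from a joined locus that also serves as *Krt14*, highest in normal replicate 3 (81.3 FPKM) and lowest in diabetic replicate 3 (53.6 FPKM). Of 6 keratocyte and stroma markers 4 were found, with sums of 794 to 1010 FPKM in the normal group and 696 to 787 FPKM in the diabetic group. These sums did not overlap, by a narrow gap. Of the 4 markers *Lum* alone had groups that did not overlap (148 to 172 FPKM in normal and 102 to 123 FPKM in diabetic libraries). Such a lack of overlap held for 5.72% of all loci tested with lower diabetic values and 3.94% with higher ones. *Trp63*, a factor of basal epithelial cells singled out after its values were seen, was also highest in these 2 libraries (37.95 and 38.99 FPKM, against 15.02 to 30.63 FPKM in the others). The part of these differences in the values of *Il1r1* and *Il1a* was not tested.

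**Figure D4:**
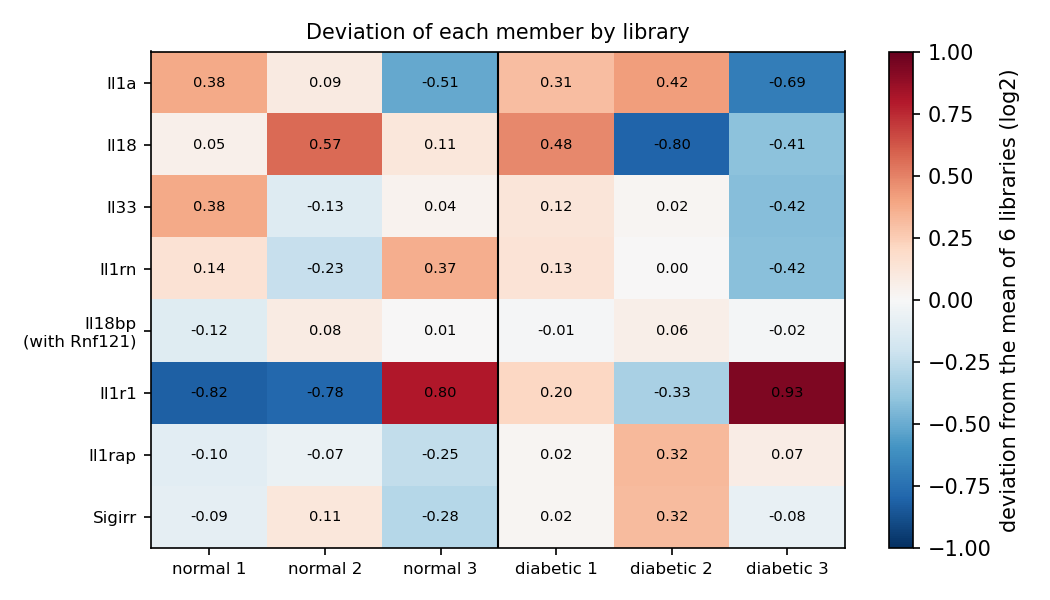
Deviation of each tested member from its mean over the 6 libraries, in normalized log2(FPKM + 1), with libraries in columns. *Il1r1* is high (0.80 and 0.93) and *Il1a* low (−0.51 and −0.69) in replicate 3 of both groups, and *Il18* is low in diabetic replicates 2 and 3.

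The loci whose 6 values followed *Il1r1* most closely were *Chtopl1*, AABR07049223, *Ankib1*, AABR07026805 and *Apod*, an apolipoprotein gene. Likeness was the Euclidean distance of centred log2 values over 6 libraries, among 11569 protein-coding loci, and it ran from 0.79 for *Chtopl1* to 0.95 for *Apod*. *Apod* stood at 57.5, 69.7 and 109.6 FPKM in normal and at 65.9, 60.1 and 154.6 FPKM in diabetic libraries. With 6 libraries some loci lie this close to any pattern, and the list is a description.

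*Sigirr*, an inhibitory receptor of epithelia, stood at 2.00, 2.48 and 1.71 FPKM in normal and at 2.24, 2.93 and 2.14 FPKM in diabetic libraries, and the groups overlapped. Its log2 fold change was 0.17 (SE 0.17, interval −0.22 to 0.57), and with a library left out it ran from 0.061 (without diabetic replicate 2) to 0.27 (without normal replicate 2). The decoy receptor gene *Il1r2* had 0, 15 and 32 counts in normal and 13, 18 and 14 counts in diabetic libraries. In an edgeR fit without the filter its log2 fold change was 0.19 (unadjusted p 0.885, adjusted p 0.998). The decoy was thus at the edge of detection, and in normal replicate 1 a share of up to 0.0380 CPM is allowed.

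Other members of the family were mostly silent. Of the 11 further family genes listed, 9 lay under the filter, among them all genes of the IL-36 cytokines and *Il1rl1*, the receptor chain for IL-33, which reached at most 0.0723 FPKM. Beside *Il1r1* on chromosome 9 (46962288 to 47038117), the IL-36 receptor gene *Il1rl2* stood at 3.52 ± 0.320 and 3.06 ± 0.196 FPKM, with a log2 fold change of −0.14 (SE 0.12). *Il18r1*, the receptor chain that binds IL-18, stood at 1.196 ± 0.252 and 1.43 ± 0.492 FPKM, while its partner chain *Il18rap* reached at most 0.0730 FPKM. Neither tested gene was called by limma, edgeR or DESeq2, nor had either an unadjusted p under 0.05 with limma.

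Genes that process and release the cytokines were tested next. Of 17 listed genes 13 were tested, and 0 were called by limma, edgeR or DESeq2. *Casp8*, an initiator caspase that can cleave IL-1β, stood at 5.27 ± 0.549 in normal and 7.33 ± 0.603 FPKM in diabetic libraries, without overlap (log2 fold change 0.43, SE 0.12, limma unadjusted p 0.00746, adjusted p 0.953). *Casp4*, which senses lipopolysaccharide inside the cell, stood at 3.36 ± 0.533 and 2.41 ± 0.858 FPKM. *Ninj1*, a protein of membrane rupture, had a log2 fold change of −0.14 and the calpain gene *Capn2* one of 0.14. *Casp1* itself stood at 2.71 ± 0.255 and 3.06 ± 0.243 FPKM, and the sensor gene *Nlrp3* lay under the filter, with 22, 23 and 41 counts in normal and 16, 7 and 4 counts in diabetic libraries. In the edgeR fit without the filter *Nlrp3* had a log2 fold change of −1.53 (unadjusted p 0.0791, adjusted p 0.954). In this list 6 log2 fold changes were positive and 7 negative (median −0.014), and the groups did not overlap for 1 gene with higher and 1 with lower diabetic values. Over all loci tested this held for 3.94% with higher and 5.72% with lower diabetic values.

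In the signaling chain below the receptors, 27 of 29 listed genes were tested. *Traf6*, the ubiquitin ligase that passes the signal on, stood at 6.80, 6.88 and 7.48 FPKM in normal and at 4.55, 3.52 and 4.71 FPKM in diabetic libraries. It was the gene of this list called by DESeq2 (adjusted p 0.0155, log2 fold change −0.70). Neither limma (−0.61, SE 0.12, unadjusted p 0.00124, adjusted p 0.953) nor edgeR (unadjusted p 0.000781, adjusted p 0.875) called it. Its unadjusted limma p was the smallest of the list. DESeq2 also called the most loci of the 3 tools over all (0.234%). *Nfkbia*, the NF-kappa B inhibitor that NF-kappa B induces, stood at 12.7 ± 2.62 and 17.1 ± 2.85 FPKM (log2 fold change 0.43, limma unadjusted p 0.0442). The kinase gene *Irak2* stood at 3.37 ± 0.153 and 5.19 ± 1.96 FPKM (0.47, limma unadjusted p 0.0658). *Ube2n*, the conjugating enzyme that works with TRAF6, stood at 20.7 ± 1.00 and 17.8 ± 1.54 FPKM (−0.19, limma unadjusted p 0.0814). For the 27 genes 17 log2 fold changes were positive and 10 negative (median 0.027), with 2 genes entirely higher and 2 entirely lower in the diabetic group. Over all loci tested the median was −0.0049, and 3.94% were entirely higher and 5.72% entirely lower in the diabetic group.

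Of 24 genes that IL-1 is known to induce, 11 reached the filter. The neutrophil chemokine genes *Cxcl2* and *Cxcl3* and the cytokine genes *Il6* and *Tnf* were among the 12 below it. *Nos2*, the inducible nitric oxide synthase, stood at 6.48, 4.91 and 2.00 FPKM in normal and at 4.13, 19.9 and 10.6 FPKM in diabetic libraries, with overlap (log2 fold change 1.10, SE 0.53, limma unadjusted p 0.0732). *Zc3h12a*, an RNase that degrades cytokine mRNA, stood at 4.64 ± 1.11 and 9.65 ± 6.18 FPKM, and *Tnfaip3*, an inhibitor of NF-kappa B, at 1.24 ± 0.450 and 1.91 ± 0.457 FPKM. *Ptgs2*, the cyclooxygenase of prostaglandin synthesis, had a negative value, at 2.13 ± 0.261 and 1.23 ± 0.605 FPKM without overlap (−0.52, SE 0.22, limma unadjusted p 0.0479, adjusted p 0.953). None of the 11 was called by limma, edgeR or DESeq2. Log2 fold changes were positive for 7 and negative for 4, with a median of 0.16. *Casp4*, *Casp8*, *Traf6* and *Ptgs2* are among the genes that the study chose on these samples, and are no independent evidence in either direction.

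**Figure D5:**
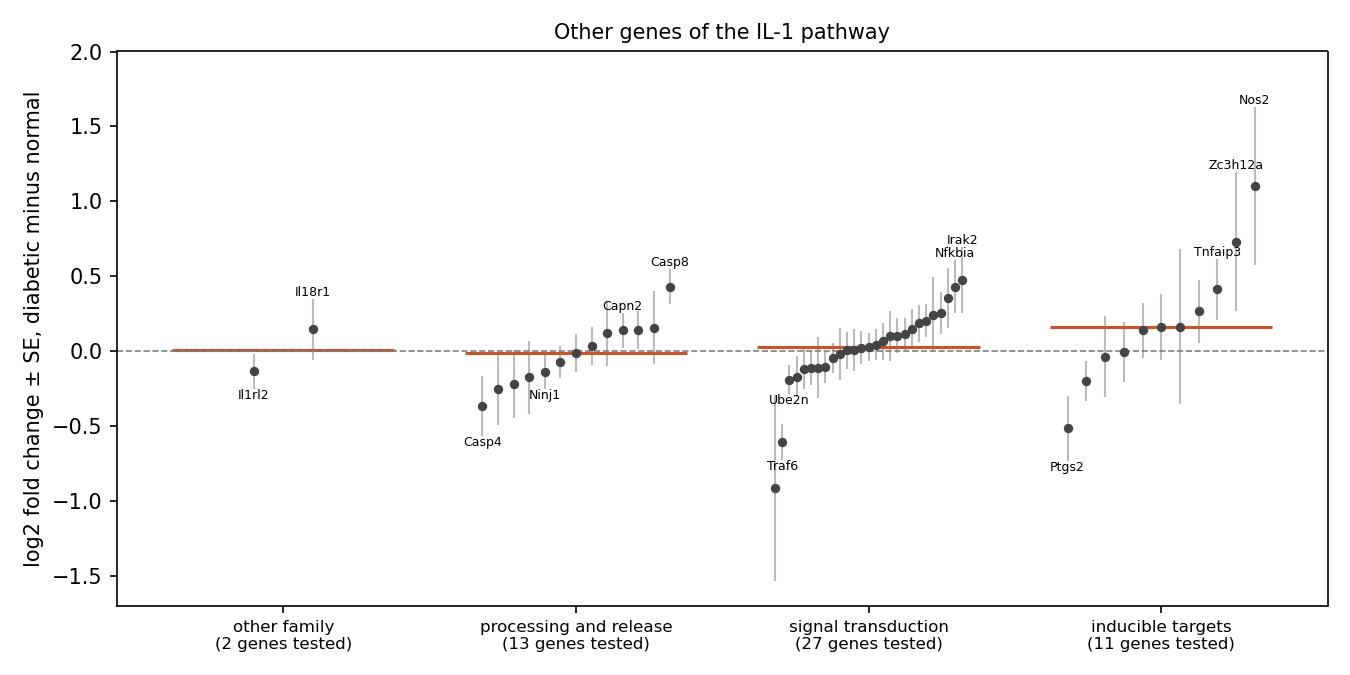
Log2 fold change ± SE (limma, diabetic minus normal) of the 53 other pathway genes tested, in 4 lists, with a red bar at the median of each list. Most points lie within 0.5 of 0, and the lists hold positive and negative values side by side.

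Markers of immune cells, which can make IL-1 and its decoy, were low beside those of the epithelium. Of 10 monocyte and macrophage markers 9 were found, with summed levels of 32.4 to 33.3 FPKM in normal and 30.7 to 36.5 FPKM in diabetic libraries, most of it *Cd68* and *Lyz2*. The locus of *Cd68* also bears the name of *Mpdu1*. All 7 neutrophil markers were found, with sums of 1.42 to 2.11 and 1.98 to 3.36 FPKM, most of it *Ngp*, and *Elane* had no counts in any library. The locus of *Ngp* overlaps that of *Setd2*. The 6 T and NK cell markers summed to at most 0.184 FPKM and the 4 dendritic and Langerhans cell markers to at most 0.353 FPKM, and *Cd207* had no counts in any library.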

How the data were processed

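RNA of scraped corneal epithelium was measured in 3 diabetic and 3 normal libraries. According to the submitters' processing notes, reads were trimmed with cutadapt, checked with FastQC and aligned with Bowtie2 to rn6; no source used here names versions, the assembler or the counter. The authors deposited raw counts per locus and FPKM values, scaled to locus length and depth. A placeholder FPKM at a count of 0 (86380 values) was set back to 0. The study took log2 values, normalized them and used limma.

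After adding a pseudocount of 1, log2 FPKM of the loci averaging 0.5 or more was quantile-normalized and tested with limma 3.58.1 (eBayes with trend) in R 4.3.3. Counts were tested with edgeR 4.0.16 (TMM, quasi-likelihood) and DESeq2 1.42.0; figures were drawn with matplotlib 3.10.9. All p-values were adjusted over all loci tested. The methods were tested on simulated data, where DESeq2 called far more unchanged loci than limma or edgeR did. There limma and edgeR found almost none of the loci changed 1.5-fold or 2-fold, and DESeq2 found few of them. The absence of a call therefore does not exclude a change of that size. The length behind FPKM was recovered from counts, FPKM and library totals, and divided by 1.152, the median ratio of that length to the span over 18367 loci of 1 transcript without strand. The genes named are the members and the 4 of smallest limma p per pathway list or called by any tool. Also named are 5 loci like the member of largest change and the leading 2 markers of a list. *Casp1*, *Krt5*, *Krt7*, *Krt13*, *Krt14*, *Krt19*, *Lum*, *Trp63*, *Elane*, *Cd207*, *Nlrp3*, *Pts* and *Il18rap* were chosen with their values seen. So were those named as below the filter or without counts. Members, lists and motifs were chosen with earlier results of these data known. *Irak1*, *Ube2v1*, *Saa3*, *Aif1*, *Pecam1*, *Muc5ac*, *Col1a2* and *Col3a1* were not analysed here. Sums of the endothelial markers (2.39 to 2.99 FPKM) and mast cell markers (8.47 to 18.6 FPKM, nearly all *Kit*) are given for completeness. Alternatives covered normalization, pseudocount, filter, variance prior, weights, the replicate block, the locus of a name and leaving out each library.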

Additional observations from a re-analysis of the deposited data

How the results depend on the processing

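No member was called under any of the alternatives run with limma or edgeR, nor with DESeq2, and leaving out each library in turn left the number of members called at 0 to 0 with either tool. Of the other pathway genes 0 were called by limma under its own alternatives, at 0 to 0 with a library left out, and by edgeR, whereas DESeq2 called 1 (*Traf6*). Apart from fits with a library left out, 1 log2 fold change turned: that of *Il1a* was −0.013 with limma's array weights. With a library left out, 10 turned: *Il1a* ran from −0.23 to 0.38 with limma and from −0.16 to 0.39 with edgeR, *Il18bp* from −0.031 to 0.067 and from −0.043 to 0.11, and *Il1rn* from −0.33 to 0.0039 with edgeR. The labels number the replicates but state no pairing. Deviations of same-numbered libraries over all loci tested correlated at −0.0092, 0.025 and 0.032, and not every library correlated best with its own number. Replicate 3 of both groups nonetheless stood apart together on the second principal component, so these values do not settle whether replicates were paired. With the replicate block 0 members were called, and *Il1r1* had an unadjusted limma p of 0.0395 (adjusted p 0.926). Over all loci limma called 11, against 6 with a pseudocount of 0.1, 3 without the filter, 1 with the replicate block, 3 when diabetic replicate 1 was left out and 5 when diabetic replicate 2 or 3 was; edgeR called 6 and DESeq2 99. Depth limits *Il1b* and *Il1r2*, with at most 33 counts in a library.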

Other observations

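Unannotated fragments that bear a member's name were left out of the values above. A fragment without strand inside *Il1a* (231 bp) had 25, 12 and 9 counts in normal and 21, 48 and 73 counts in diabetic libraries (log2 fold change 1.02, SE 0.37, limma unadjusted p 0.0263, adjusted p 0.953). It was highest in diabetic replicate 3, the library with the lowest *Il1a*. Fragments on the strand opposite to *Il1rap* had log2 fold changes of −0.27 (662 bp) and 0.14 (921 bp), and a fragment without strand inside *Sigirr* (1301 bp) had 0.15. None of these 4 fragments was called by limma, edgeR or DESeq2.

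Of the 7 neutrophil markers, *S100a9* and *Cxcr2*, singled out after their values were seen, had counts in diabetic libraries alone. How often loci under the filter show such a pattern was not computed. *S100a9*, a calcium-binding alarmin, had 0 counts in each normal library and 13, 24 and 38 in the diabetic ones, and the chemokine receptor gene *Cxcr2* had 0 in each normal library and 23, 23 and 4 in the diabetic ones. *S100a8*, the partner of *S100a9*, had 8, 8 and 19 counts against 15, 10 and 10. *Csf3r*, the receptor gene for the neutrophil growth factor, had 12, 22 and 24 counts against 29, 11 and 10. *Ngp*, whose locus overlaps that of *Setd2*, had 164, 177 and 87 against 121, 142 and 160. *Mpo* had at most 4 counts in a library and *Elane* had none. In an edgeR fit without the filter unadjusted p was 0.00257 for *S100a9*, 0.00752 for *Cxcr2*, 0.830 for *S100a8* and 0.893 for *Csf3r*, and adjusted p was 0.954, 0.954, 0.996 and 0.998.

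*Tnf*, an inflammatory cytokine gene that IL-1 can induce, lay under the filter and had 0, 41 and 7 counts in normal and 135, 90 and 41 counts in diabetic libraries. Its groups did not overlap in FPKM (at most 0.278 and at least 0.326), and in an edgeR fit without the filter its log2 fold change was 2.58 (unadjusted p 0.0612, adjusted p 0.954). It was singled out after its values were seen, and its locus overlaps others of the same region. The share of loci without overlap was computed above the filter alone, so none stands beside this value.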
